A study of Mus musculus with 4 samples.

Results

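Cytochrome P450 enzymes are haem-containing monooxygenases that oxidise drugs, pollutants, retinoids, steroids and fatty acids. Mouse P450 genes were taken by name, as every array probe whose gene symbol holds Cyp, a family number, a subfamily letter and a gene number, with Cyp2f2 left out. This gave 114 probes for 80 gene names, and each gene is represented by its brightest probe. On 1 or more of the 4 arrays, 50 genes were flagged as well above background by the scanner software, among 18863 such genes of 27615 gene names on the array. Within the 50, 40 were well above background on all 4 arrays and 10 on 1 to 3 arrays. A gene that passed through 1 array alone had to differ there, so counts over the 50 are given as descriptions. The members comprise 3 of 4 Ah receptor targets, 1 of 2 retinoid P450s, 8 of 14 steroid, sterol and vitamin D P450s, 20 of 33 fatty acid P450s and 18 of 27 xenobiotic and other P450s.

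The cells were alveolar type II cells, the lung epithelium that makes surfactant, isolated from dissociated mouse lungs on a flow cytometer. The 4 groups were Tlr3-/- mice bearing a subcutaneous Lewis lung carcinoma (LLC, a mouse lung cancer line) for 2 weeks, Tlr3-/- mice without tumor cells, wild-type (WT) mice bearing the same tumor for 2 weeks, and WT mice without tumor cells. All are labelled female. The receptor Tlr3 senses double-stranded RNA. The strain, the age of the mice and the number of mice behind an array are not given in the sources used here. Each group is 1 array, so no difference has a replicate check, no p-value is given, and precision is limited by the small number of arrays.

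Levels are log2 processed intensities minus the 75th percentile of the same array, so a level of 0 is the intensity of the gene spots' upper quartile. Each probe binds its target with its own strength, and levels of different genes are therefore not set against each other. A gene is called here when it differs by at least 2-fold between 2 arrays. Where a probe was well above background on only 1 of the 2, only a bound can be given, marked by "at least".

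The 75th percentile lay between 555 and 904 intensity units and 61 to 65.4% of gene spots were well above background. Both Tlr3 probes were dim, and the brighter one read -5.30 on the Tlr3-deficient array with tumor and -5.44 on the Tlr3-deficient array without, against -3.94 and -3.93 on the WT arrays with and without tumor. None of 10 type II markers, such as the surfactant genes, differed by 2-fold in any comparison, and their mean level was 6.74, 6.70, 6.88 and 6.98 on the Tlr3-deficient tumor, Tlr3-deficient no-tumor, WT tumor and WT no-tumor arrays. Markers of other cells were present too: 11 measured neutrophil markers averaged -0.69 and -0.15 on the Tlr3-deficient and WT tumor arrays, against -4.34 and -4.43 on the arrays without tumor. All 7 alveolar type I and all 7 club cell markers were well above background on every array. The array labelled Tlr3-deficient without tumor goes against its label: all 4 Y-linked transcripts were well above background there and on no other array, and Xist read -4.05 there against 3.80 to 4.05 elsewhere. Every comparison below that uses it carries that difference, and with 1 array a group there is no version without it. The arrays came from 3 slides, and the Tlr3-deficient no-tumor and WT tumor arrays shared 1 slide.

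In lung, P450s of the CYP1 and CYP2 families activate or clear inhaled chemicals, and the aryl hydrocarbon (Ah) receptor switches on Cyp1a1 and Cyp1b1 by binding, with Arnt, to DNA that holds the core GCGTG. CYP26 enzymes degrade retinoic acid, CYP4 enzymes oxidise the ends of fatty acids and eicosanoids, and several CYP2C and CYP2J enzymes make arachidonic acid epoxides. Mouse Cyp2a and Cyp2b genes lie side by side as tandem copies, and in mouse liver Cyp2a4, Cyp2b9 and Cyp2b13 are known for higher levels in females.

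The bases before the start sites of the genes that the results turn on are shown first, from RefSeq on GRCm38.p6, 250 bases each, 5′ to 3′ on the gene's strand. For the Ah receptor targets, capitals mark GCGTG or its opposite strand, CACGC. Cyp1a1 (chr9:57697363-57697612, plus strand) holds it 54 to 50 bases before the start site, and Cyp1b1 (chr17:79715062-79715311, minus strand) holds it on the opposite strand, 76 to 72 bases before. Cyp2s1 and Cyp1a2, also Ah receptor targets, do not hold it in windows of the same length and are not shown. Cyp2b10, which is not of this group, holds it 9 to 5 bases before its start site. On the opposite strand Cyp2b10 holds it 101 to 97 bases before.
Cyp1a1: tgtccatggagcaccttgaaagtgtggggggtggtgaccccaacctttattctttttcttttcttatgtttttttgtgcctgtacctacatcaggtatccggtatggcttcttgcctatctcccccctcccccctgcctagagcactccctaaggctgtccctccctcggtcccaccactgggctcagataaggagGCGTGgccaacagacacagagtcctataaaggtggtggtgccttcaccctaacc
Cyp1b1: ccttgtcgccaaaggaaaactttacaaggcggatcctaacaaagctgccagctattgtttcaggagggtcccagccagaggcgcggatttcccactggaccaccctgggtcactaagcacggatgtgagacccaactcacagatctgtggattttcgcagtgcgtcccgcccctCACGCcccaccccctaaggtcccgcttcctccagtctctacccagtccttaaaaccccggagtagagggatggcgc

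The Cyp2a genes are shown because they moved together. Capitals mark TATAAA, searched as the TATA box, 28 to 23 bases before the start of Cyp2a4 (chr7:26306942-26307191, plus strand), 29 to 24 before Cyp2a5 (chr7:26835089-26835338, plus strand) and 28 to 23 before Cyp2a22 (chr7:26939387-26939636, minus strand).
Cyp2a4: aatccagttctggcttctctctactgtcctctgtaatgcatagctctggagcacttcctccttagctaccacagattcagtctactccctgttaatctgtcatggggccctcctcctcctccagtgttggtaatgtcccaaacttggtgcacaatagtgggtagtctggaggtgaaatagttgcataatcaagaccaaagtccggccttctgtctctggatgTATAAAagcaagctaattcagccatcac
Cyp2a5: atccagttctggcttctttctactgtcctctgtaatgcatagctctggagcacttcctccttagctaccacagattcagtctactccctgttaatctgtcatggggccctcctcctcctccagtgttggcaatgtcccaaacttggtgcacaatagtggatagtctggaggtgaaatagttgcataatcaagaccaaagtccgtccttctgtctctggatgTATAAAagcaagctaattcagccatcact
Cyp2a22: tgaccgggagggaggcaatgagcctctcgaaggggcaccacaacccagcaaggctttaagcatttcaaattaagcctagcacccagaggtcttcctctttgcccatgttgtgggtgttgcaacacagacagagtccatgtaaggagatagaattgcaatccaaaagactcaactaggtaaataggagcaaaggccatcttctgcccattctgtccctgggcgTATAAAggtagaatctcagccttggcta

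The Cyp2b genes are shown for the same reason, with AGGTCA, the half-site bound by many nuclear receptors, in capitals. It lies 138 to 133 bases before the start sites of Cyp2b9 (chr7:26173159-26173408, plus strand) and Cyp2b13 (chr7:26061245-26061494, plus strand). Cyp2b10 (chr7:25897408-25897657, plus strand) has no such run of letters in this window.
Cyp2b9: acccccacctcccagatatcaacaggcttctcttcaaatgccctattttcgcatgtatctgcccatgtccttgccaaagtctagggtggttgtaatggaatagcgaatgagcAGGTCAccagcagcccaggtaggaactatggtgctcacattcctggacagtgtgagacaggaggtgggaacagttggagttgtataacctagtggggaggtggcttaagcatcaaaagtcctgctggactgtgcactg
Cyp2b13: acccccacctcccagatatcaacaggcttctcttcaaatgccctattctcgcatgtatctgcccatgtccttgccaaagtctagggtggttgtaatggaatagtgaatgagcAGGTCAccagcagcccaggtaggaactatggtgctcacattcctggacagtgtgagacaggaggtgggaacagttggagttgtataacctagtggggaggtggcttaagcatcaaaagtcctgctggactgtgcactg
Cyp2b10: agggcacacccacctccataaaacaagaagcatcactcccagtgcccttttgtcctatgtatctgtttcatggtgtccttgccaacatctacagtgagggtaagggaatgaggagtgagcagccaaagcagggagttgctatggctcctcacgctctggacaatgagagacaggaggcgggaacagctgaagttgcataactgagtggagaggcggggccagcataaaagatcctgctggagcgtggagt

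Aligned without gaps, the windows of Cyp2a4 and Cyp2a5 matched at 245 of 249 bases (98.4%) and those of Cyp2b9 and Cyp2b13 at 248 of 250 (99.2%). Cyp2b9 and Cyp2b10 matched at 50.6% of bases, Cyp2a4 and Cyp2a22 at 30%, and Cyp2a4 and Cyp2b9 at 30.2%. On either strand, GCGTG was found in 28.2% of 32851 mouse promoter windows and in 28.6% of 42 P450 windows. TATAAA was found in 12.4% of all windows and 28.6% of the P450 windows, and AGGTCA in 14% and 14.3%. These motifs do not overlap in letters, and a match is a run of letters and not a site of binding. Windows were matched for 38 of the 50 measured genes.

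**Figure D1:**
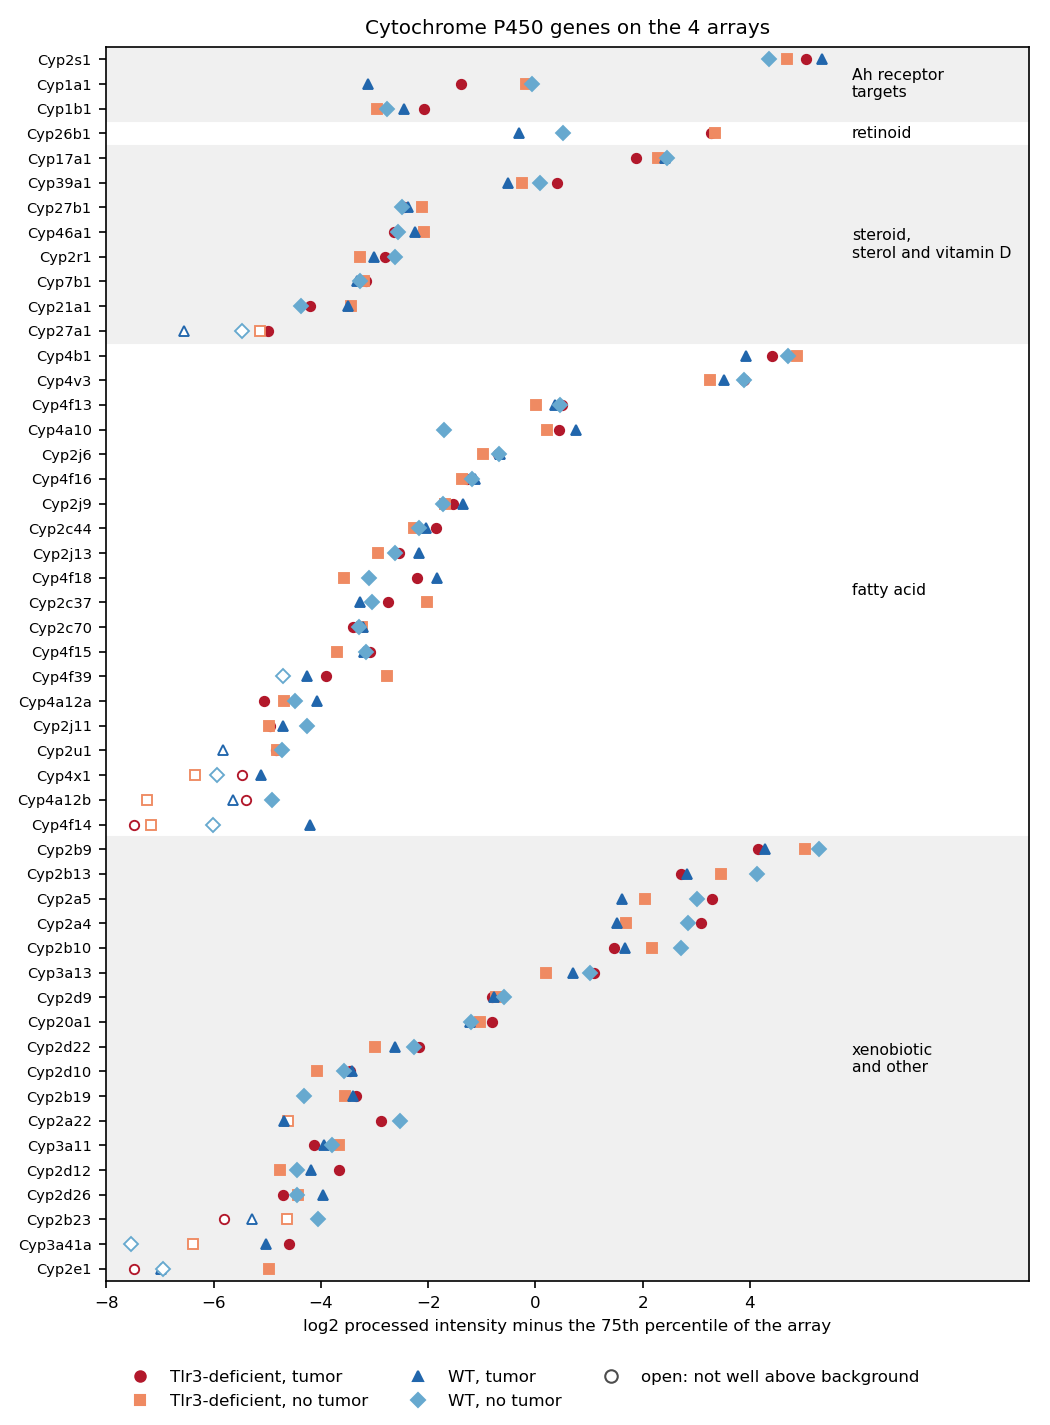
Level of each of the 50 measured P450 genes on each array (x axis, log2 processed intensity minus the array's 75th percentile), sorted within each role by mean level. Red circles and orange squares are the Tlr3-deficient arrays with and without tumor, dark blue triangles and light blue diamonds the WT arrays with and without tumor. Open symbols are spots not well above background, and 29 genes sit within 2-fold in every comparison while Cyp1a1, Cyp26b1, Cyp4a10 and the Cyp2a genes spread widely.

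Of the 50 P450 genes, 15 were called in at least 1 comparison. The share of all genes called in at least 1 comparison was not computed, so this count is a description. Shares of all genes are given below for each comparison. Another 29 were measured on all arrays and differed by less than 2-fold in all 4 comparisons. The remaining 6 were not called but have only bounds in some comparisons, or were not tested in all of them, so they cannot be said to lie within 2-fold: Cyp27a1, Cyp2e1, Cyp2u1, Cyp3a41a, Cyp4a12b and Cyp4x1. With tumor against without in Tlr3-deficient mice, 5 of 46 P450 genes were at least 2-fold higher and 2 lower, beside 4.5% higher and 3.89% lower of all 18139 genes tested. In WT the same comparison called 3 of 48 higher and 8 lower, beside 5.65% and 1.57% of all genes, and the 8 lower genes are 16.7% of the P450 genes tested. Tlr3-deficient against WT without tumor called 4 of 46 higher and 2 lower, beside 5.89% and 2.34%, and with tumor it called 5 of 47 higher and 1 lower, beside 2.9% and 2.66%. The median log2 difference over the P450 genes was 0.14, -0.04, -0.19 and 0.06 in these comparisons, and over all genes -0.01, 0.00, -0.04 and -0.05. The comparisons share arrays in pairs and so are not independent of one another.

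The precision of a single spot sets a lower limit on what can be read. Non-control probes with repeat spots gave an SD of the log2 difference between repeat spots of 0.11 for the Tlr3-deficient tumor comparison, 0.29 for the WT tumor comparison, 0.29 for the genotypes without tumor and 0.11 for the genotypes with tumor. The larger values belong to array columns 1 to 51, where the SD was 0.34 in the WT tumor comparison against 0.12 in columns 52 to 85. Of the 50 representative probes, 31 lie in columns 1 to 51, and each P450 probe has 1 spot. These values cover spots on an array and not mice.

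**Figure D2:**
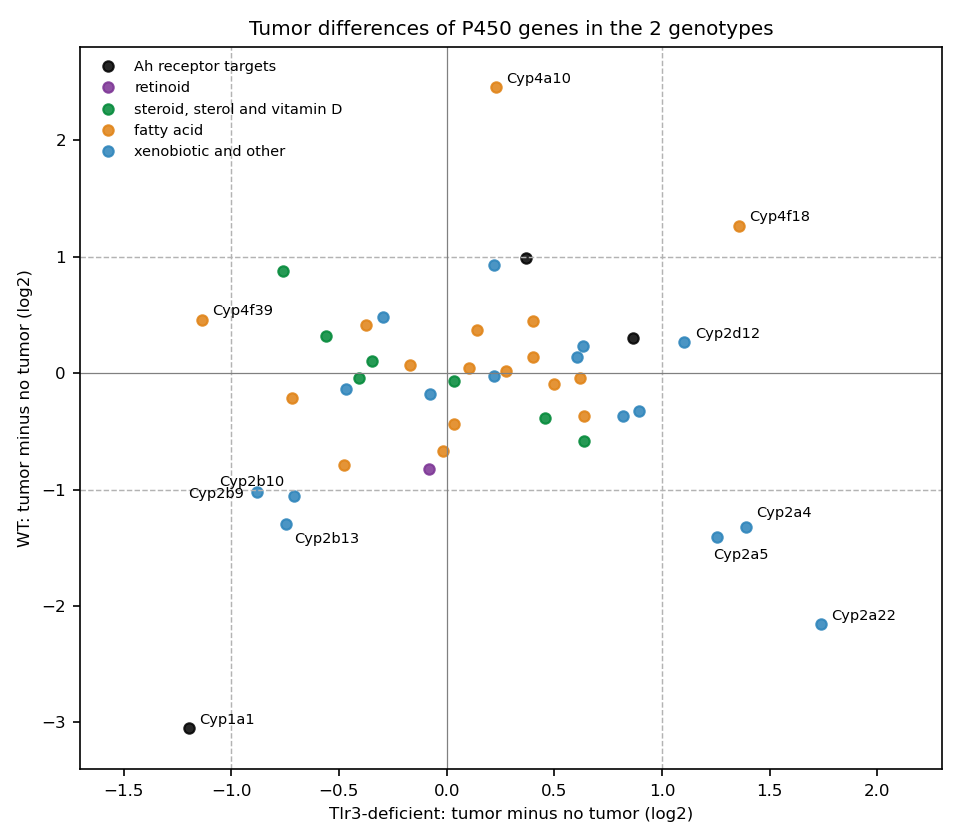
Log2 difference with against without tumor in Tlr3-deficient mice (x axis) and in WT mice (y axis) for the P450 genes tested in both, 1 point per gene, coloured by role. Dashed lines mark 2-fold, and genes past them on either axis are named: Cyp1a1 is lower in both, Cyp4f18 higher in both, and Cyp2a4, Cyp2a5 and Cyp2a22 are higher in Tlr3-deficient mice and lower in WT (Cyp2a22 on the x axis is a lower bound).

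Among the measured Ah receptor targets, Cyp1a1 differed most, and Cyp1b1 and Cyp2s1 stayed within 2-fold with the scanner's background correction. Cyp1a1, the classic Ah receptor target, which oxidises polycyclic aromatic hydrocarbons (probe on mm9 chromosome 9, 57551535 to 57551594), read -1.38 on the Tlr3-deficient array with tumor and -0.18 on that without. It read -3.11 on the WT array with tumor and -0.06 on that without. It was thus low on both tumor arrays and near 0 on both others: 2.29-fold lower with tumor in Tlr3-deficient mice (log2 -1.20) and 8.28-fold lower in WT (log2 -3.05). It was the 1 of 50 P450 genes whose level on both tumor arrays lay at least 2-fold below both arrays without tumor, a pattern shown by 0.202% of 18856 genes. Between genotypes it was 3.33-fold higher in Tlr3-deficient mice with tumor (log2 1.74) and differed by -0.12 without tumor. Alveolar type I markers were called lower with tumor as well, in 4 of 7 genes in Tlr3-deficient mice and 3 of 7 in WT. Of all genes, 3.89% and 1.57% were lower. The type I markers averaged 3.28 and 2.76 on the Tlr3-deficient and WT tumor arrays, against 4.30 and 3.68 on the arrays without tumor. Endothelial markers had medians of -0.45 and -0.55 with tumor in Tlr3-deficient mice and WT, with 0 of 7 called. Fibroblast and pericyte markers had medians of -0.61 and -0.34, with 3 and 0 of 8 called lower. The part of these cells in the differences of Cyp1a1 and of the Cyp2b genes below was not tested. With normexp in place of the scanner's background correction, the WT tumor difference of Cyp1a1 was -2.42 and the genotype difference with tumor 1.23.

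Cyp1b1, which activates polycyclic hydrocarbons and oxidises oestradiol, read -2.08, -2.95, -2.46 and -2.76 on the Tlr3-deficient tumor, Tlr3-deficient no-tumor, WT tumor and WT no-tumor arrays. The tumor difference was 0.87 in Tlr3-deficient mice and 0.30 in WT, both under 2-fold and opposite in sign to that of Cyp1a1. Its other probe was not well above background on any array. Cyp2s1, an epithelial P450 inducible through the same receptor, read 5.05, 4.69, 5.35 and 4.36 in that order. It was lowest on the WT array without tumor, and its WT tumor difference of 0.99 lay just under the 2-fold line, against 1.36 with normexp. Cyp1a2, the liver's partner of Cyp1a1, was not well above background on any array with either of its probes.

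Of the other genes of the Ah receptor pathway, Aldh3a1, Gsta2 and Gstm1 differed by 2-fold in at least 1 comparison. Ahr, the receptor, read 1.10, 0.77, 0.71 and 0.45 on the Tlr3-deficient tumor, Tlr3-deficient no-tumor, WT tumor and WT no-tumor arrays, and its partner Arnt lay between -0.43 and -0.33 on all 4. Of 12 measured genes of the pathway, 1 was called higher and 0 lower with tumor in Tlr3-deficient mice, beside 4.5% and 3.89% of all genes. It was the aldehyde dehydrogenase Aldh3a1, higher by at least 2.07-fold. In WT 0 were higher and 1 was lower with tumor, the glutathione transferase Gsta2, at -1.23, beside 5.65% and 1.57% of all genes. Without tumor 3 of 11 tested were lower in Tlr3-deficient mice than in WT and 0 higher, beside 2.34% and 5.89% of all genes. They were Gsta2 (-1.91), the glutathione transferase Gstm1 (-1.06) and Aldh3a1 (at least 3.78-fold). With tumor none was called between genotypes, beside 2.9% of all genes higher and 2.66% lower. Nqo1 and Tiparp, further Ah receptor targets, were called in no comparison.

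Cyp26b1, which degrades retinoic acid, was the P450 gene with the largest genotype difference. Its probe (mm9 chromosome 6, 84521952 to 84522011) read 3.27 and 3.36 on the Tlr3-deficient arrays with and without tumor, against -0.30 and 0.52 on the WT arrays with and without tumor. Both Tlr3-deficient arrays were high and both WT arrays low, with no overlap. The gene was 11.9-fold higher in Tlr3-deficient mice with tumor (log2 3.57) and 7.13-fold higher without (log2 2.83). It was the 1 of 50 P450 genes at least 2-fold higher on both Tlr3-deficient arrays than on both WT arrays, which 0.35% of all genes showed. The tumor differences were small, at -0.08 in Tlr3-deficient mice and -0.82 in WT. The comparison with tumor does not use the array that carries Y-linked transcripts. Endothelial markers also averaged higher on the Tlr3-deficient arrays, at 1.14 with and 1.55 without tumor, against 0.56 and 1.05 on the WT arrays, with medians of 0.46 and 0.47 between genotypes with and without tumor and 0 of 7 called. Alveolar type I markers did so too, with medians of 0.53 and 0.61 in these comparisons and 0 and 1 of 7 called. Fibroblast and pericyte markers had medians of -0.05 and 0.81, with 0 and 1 of 8 called. The part of these cells in the Cyp26b1 difference was not tested. Cyp26b1 has 1 probe on the array, and Cyp26a1, its relative, was not well above background on any array.

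Of 15 measured genes of retinoid handling and signalling, 1 was called higher with tumor in Tlr3-deficient mice and between genotypes with tumor. Of all genes, 4.5% and 2.9% were higher in these comparisons. Lrat, which esterifies retinol for storage, read -0.70 on the Tlr3-deficient tumor array, against -2.19 on the Tlr3-deficient no-tumor array, -2.45 on the WT tumor array and -2.36 on the WT no-tumor array. It was high on 1 array alone, 2.82-fold higher with tumor in Tlr3-deficient mice and 3.37-fold higher in Tlr3-deficient mice than in WT with tumor. The same array had the highest mean of 8 alveolar macrophage markers, at -1.25 against -2.66, -2.33 and -2.56 on the others in the same order, and their part in the Lrat difference was not tested. No other member of the list was called in any comparison. Aldh1a1, which makes retinoic acid, stayed between 4.89 and 5.55, Dhrs3, which reduces retinal, between 5.36 and 5.71, and the retinoic acid receptor gene Rarb between -1.65 and -0.85.

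**Figure D3:**
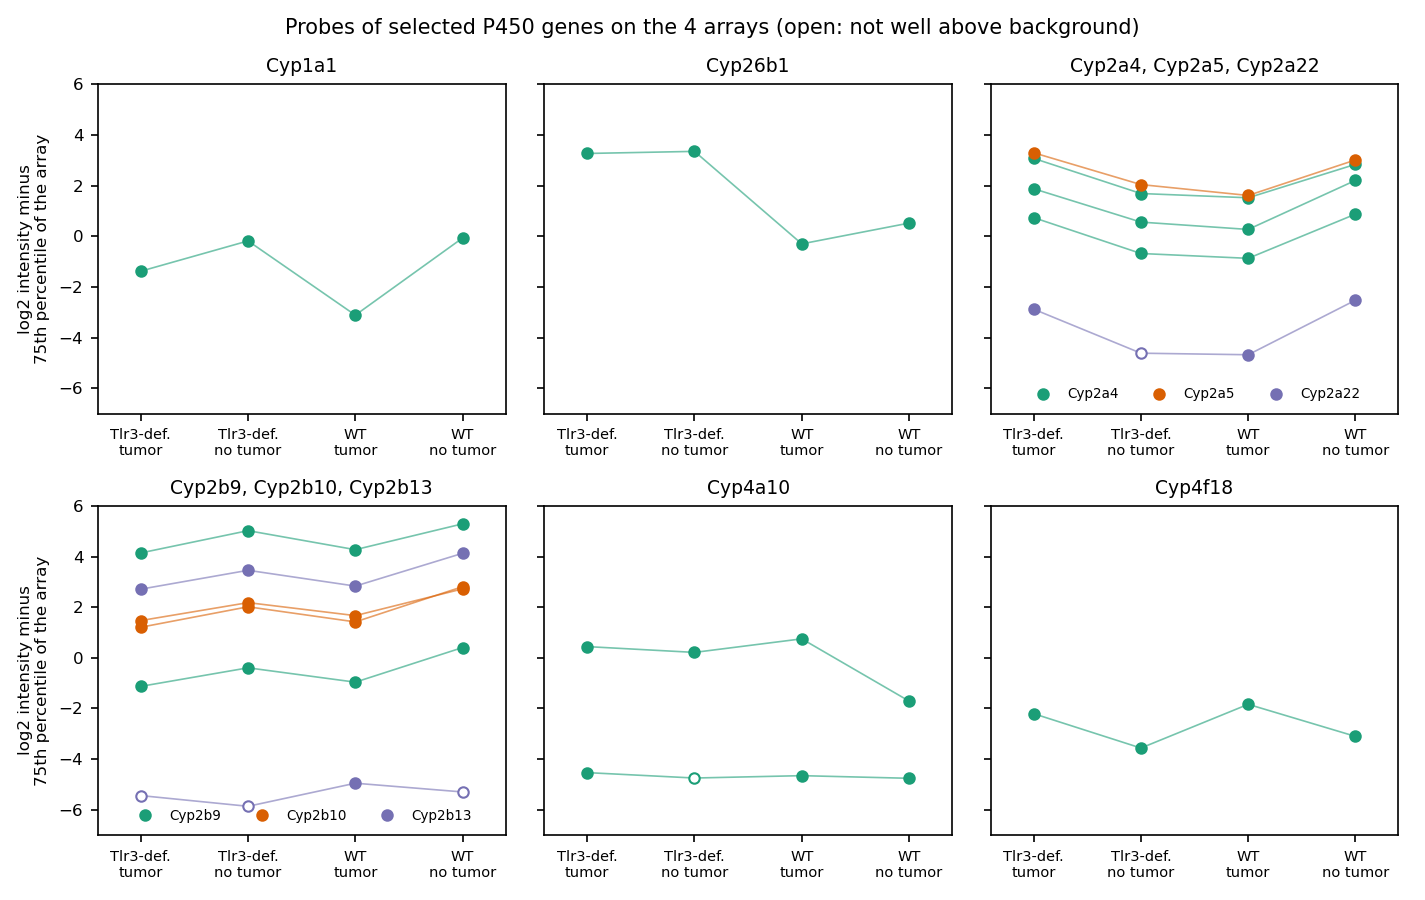
Level (y axis, log2 processed intensity minus the array's 75th percentile) of every probe well above background on at least 1 array for the named genes, on the 4 arrays in the order given on the x axis. Lines join 1 probe, colours are genes and open circles are spots not well above background. All 5 Cyp2a probes dip on the Tlr3-deficient no-tumor and WT tumor arrays, the brighter Cyp2b probes dip on both tumor arrays, and the second Cyp4a10 probe is flat.

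The Cyp2a genes moved as a block of 3, higher with tumor in Tlr3-deficient mice and lower with tumor in WT. Cyp2a4, a steroid hydroxylase (mm9 chromosome 7, 27099932 to 27099991), read 3.08 and 1.69 on the Tlr3-deficient arrays with and without tumor, against 1.52 and 2.85 on the WT arrays with and without tumor. Cyp2a5, the mouse coumarin and nicotine oxidase (27628169 to 27628228), read 3.30 and 2.05, against 1.62 and 3.02, on the same arrays. Cyp2a22, a less studied relative (27722746 to 27722805), read -2.88 and -4.62, against -4.68 and -2.52, and its value of -4.62 was not well above background. In each gene the Tlr3-deficient no-tumor and WT tumor arrays were low and the other two high.

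With tumor in Tlr3-deficient mice, Cyp2a4 was 2.62-fold higher (log2 1.39), Cyp2a5 2.39-fold higher (1.26) and Cyp2a22 at least 3.34-fold higher (1.74). WT mice bearing the tumor had Cyp2a4 2.5-fold lower (-1.32), Cyp2a5 2.65-fold lower (-1.40) and Cyp2a22 4.45-fold lower (-2.16). Between genotypes without tumor the differences were -1.15, -0.97 and at least 4.27-fold lower, and with tumor 1.56, 1.69 and 1.80. All 5 probes of the 3 genes went the same way in every comparison. With normexp, 4 of these values fell under 2-fold without changing sign: Cyp2a4 with tumor in WT (-0.89) and between genotypes without tumor (-0.82), and Cyp2a22 with tumor in Tlr3-deficient mice (0.86) and between genotypes with tumor (0.83).

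The 2 low arrays are the pair on the same slide, and 1 of them is the array with Y-linked transcripts. Only 5 of 18856 genes, or 0.0265%, were at least 2-fold lower on both arrays of that slide than on both others. Cyp2a4 and Cyp2a22 were among the 5, and the other three are entries without a gene symbol. The part of the slide or of the Y-linked array in this pattern was not tested, and slide and group cannot be told apart with 1 array a group. Club cell markers averaged 5.12 and 5.04 on the Tlr3-deficient arrays with and without tumor, against 5.39 and 5.50 on the WT arrays with and without tumor. Among the 7, Scgb3a2 and Scgb3a1, secreted proteins of club cells, had the Cyp2a directions in all 4 comparisons. Scgb3a2 read 6.54 and 6.12 on the Tlr3-deficient arrays with and without tumor, against 6.07 and 6.78 on the WT arrays. Scgb3a1 differed with tumor by 0.99 in Tlr3-deficient mice and by -0.42 in WT. Ces1g, of the same list, had the opposite direction in all 4, at 1.16 with tumor in WT and -1.34 between genotypes with tumor. Scgb1a1, Aldh1a7 and Cbr2 differed by -0.03, -0.09 and -0.20 with tumor in Tlr3-deficient mice, against the Cyp2a direction. Between genotypes with tumor they differed by -0.24, -0.30 and -0.27, also against it. All of them went the Cyp2a way in the other comparisons. The part of club cells in the Cyp2a pattern was not tested. Cyp2f2, the P450 best known from club cells, read 6.68 and 6.44 on the Tlr3-deficient arrays with and without tumor, against 6.97 and 6.94 on the WT arrays.

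The Cyp2a5 probe and 1 of the 3 Cyp2a4 probes target the same place in near-identical transcripts, and matched at 35 of 38 overlapping bases. A stretch of 30 bases of each is shown to make the likeness visible, with the bases that differ in capitals. Signal from either gene on these 2 probes can therefore not be told apart.
Cyp2a5 probe: aggacacAGAgtagacttgcagaggatatt
Cyp2a4 probe: aggacacTTCgtagacttgcagaggatatt

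Of the Cyp2b genes, 3 bright members were lower on the tumor arrays, among them Cyp2b10, the classic mouse liver target of phenobarbital through the receptor Nr1i3. Cyp2b9 (mm9 chromosome 7, 26995607 to 26995666) read 4.15 and 5.03 on the Tlr3-deficient arrays with and without tumor, against 4.27 and 5.30 on the WT arrays with and without tumor. Cyp2b13 (26873757 to 26880713) read 2.71 and 3.46, against 2.84 and 4.13. Cyp2b10 (26702056 to 26702115) read 1.47 and 2.18, against 1.67 and 2.73. In all 3 genes both tumor arrays lay below both arrays without tumor.

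With tumor in Tlr3-deficient mice, Cyp2b9, Cyp2b13 and Cyp2b10 differed by -0.88, -0.75 and -0.71 on the log2 scale, each under 2-fold. In WT they were 2.03-fold (-1.02), 2.46-fold (-1.30) and 2.08-fold (-1.06) lower with tumor, so 2 of the 3 sit at the 2-fold line. Between genotypes they were -0.27, -0.67 and -0.54 without tumor and -0.13, -0.12 and -0.20 with tumor. With quantile normalization the WT values were -0.89 for Cyp2b9 and -0.96 for Cyp2b10, and with normexp -0.93 and -0.79. The second probe of Cyp2b13 was dim, between -5.87 and -4.95, and cleared background on the WT tumor array only. It went the other way with tumor, by 0.35 in WT and 0.42 in Tlr3-deficient mice. The mean of both probes gave -0.48 in WT. Whether the tumor difference is itself different in the 2 genotypes was not tested.

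Cyp2b23 was well above background only on the WT array without tumor, at -4.05, and was at least 2.34-fold lower with tumor in WT, against a difference of -0.29 with normexp. Cyp2b19, known from skin keratinocytes, went the other way, with -3.33 and -3.55 on the Tlr3-deficient arrays with and without tumor, against -3.39 and -4.32 on the WT arrays. Nr1i3 itself read -3.09 and -3.05, against -2.08 and -1.96, and was at least 2-fold lower in Tlr3-deficient mice both without tumor (-1.10) and with tumor (-1.01), while it differed by -0.13 with tumor in WT. Nr1i2, the other main xenobiotic receptor, was well above background on the tumor arrays only. Of 8 measured receptors for xenobiotics and lipids, 1 more was called, the vitamin D receptor Vdr, 2.06-fold higher with tumor in WT. Vdr was 1 of 8 tested there, beside 5.65% of all genes higher. Nr1i3 was 1 of 7 tested between genotypes without tumor and 1 of 8 with tumor, beside 2.34% and 2.66% of all genes lower.

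**Figure D4:**
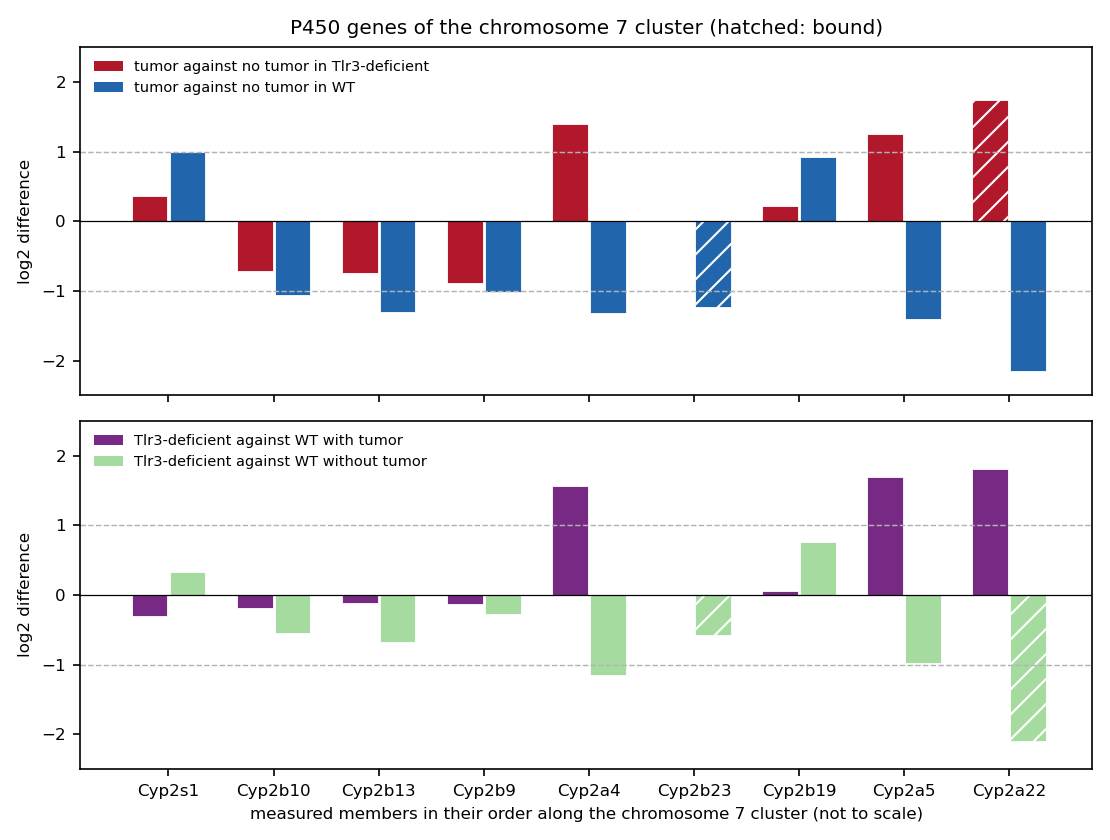
Log2 difference (y axis) of the 9 measured P450 genes of the chromosome 7 cluster in their order along the chromosome, with tumor against without (upper panel, Tlr3-deficient red, WT blue) and Tlr3-deficient against WT (lower panel, with tumor purple, without tumor green). Dashed lines mark 2-fold and hatched bars are bounds. The 3 Cyp2a genes share 1 set of directions although Cyp2b23 and Cyp2b19 lie between Cyp2a4 and Cyp2a5, and the bars of Cyp2b10, Cyp2b13 and Cyp2b9 point down in both panels.

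These genes sit in 1 cluster. On mm9, 9 measured members lie between 26587504 and 27722805 on chromosome 7, a span of 1.135 Mb, in the order Cyp2s1, Cyp2b10, Cyp2b13, Cyp2b9, Cyp2a4, Cyp2b23, Cyp2b19, Cyp2a5 and Cyp2a22. They did not move as 1 unit. With tumor in WT, 7 of the xenobiotic group's 17 tested members were called lower, all of them Cyp2a or Cyp2b genes of this cluster. Cyp2s1 and Cyp2b19 read 0.99 and 0.92 higher. Cyp2b23, 1 of the 7, cleared background only on the WT array without tumor, so it could not have been called higher. None of the 17 was called higher in that comparison, in which 5.65% of all genes were higher and 1.57% lower. Of the xenobiotic P450s outside the cluster, 1 was called: Cyp2d12, 2.15-fold higher with tumor in Tlr3-deficient mice (log2 1.10), with levels of -3.66 and -4.76 on the Tlr3-deficient arrays with and without tumor, against -4.18 and -4.44 on the WT arrays, and a difference of 0.42 with normexp. Cyp3a13, a drug-metabolising P450, read 1.10 and 0.21, against 0.70 and 1.03, with a tumor difference of 0.89 in Tlr3-deficient mice. Cyp3a41a cleared background on the tumor arrays alone and Cyp2e1 on the Tlr3-deficient no-tumor array alone, so their differences from the other arrays are bounds: Cyp3a41a was at least 1.55-fold higher with tumor in Tlr3-deficient mice and Cyp2e1 at least 1.36-fold lower.

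Of the 20 fatty acid P450s, 5 were called in at least 1 comparison: Cyp4a10, Cyp4f18, Cyp4f39, Cyp4f14 and Cyp2c37. With tumor in WT, 3 of 20 were higher and 0 lower, beside 5.65% and 1.57% of all genes. With tumor in Tlr3-deficient mice 1 of 17 was higher and 1 lower, beside 4.5% and 3.89%. Between genotypes without tumor 3 of 18 were higher and 0 lower, beside 5.89% and 2.34%. With tumor 0 of 19 were higher and 1 lower, beside 2.9% and 2.66%. Cyp4b1, which activates furan toxins in lung, read 4.41 and 4.89 on the Tlr3-deficient arrays with and without tumor, against 3.93 and 4.72 on the WT arrays with and without tumor. Cyp4v3, the mouse relative of the human eye disease gene CYP4V2, read 3.89 and 3.25, against 3.52 and 3.89. Cyp4f13 stayed between 0.00 and 0.50, and Cyp2j6, of an epoxygenase subfamily, between -0.97 and -0.67. None of these was called in any comparison, and Cyp4b1 came nearest, 1.73-fold lower with tumor in WT.

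Cyp4a10, an omega-hydroxylase of fatty acids that Ppara induces in liver, was low on 1 array. It read 0.44 and 0.22 on the Tlr3-deficient arrays with and without tumor, against 0.75 and -1.71 on the WT arrays with and without tumor. It was 5.50-fold higher with tumor in WT (log2 2.46) and 3.79-fold higher in Tlr3-deficient mice without tumor (1.92), while the other comparisons gave 0.23 and -0.31. Both calls rest on the WT array without tumor and on 1 probe, which the array annotation does not place on the genome and which lies in the columns with the larger spot SD. A second probe of the gene stayed between -4.76 and -4.53, and the mean of the probes gave 1.28 with tumor in WT and 0.97 between genotypes without tumor. Ppara stayed between 0.14 and 0.64.

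Cyp4f18, which oxidises leukotriene B4 in mouse neutrophils, was higher with tumor in both genotypes. Its probe (mm9 chromosome 8, 74512981 to 74513040) read -2.21 and -3.56 on the Tlr3-deficient arrays with and without tumor, against -1.84 and -3.10 on the WT arrays with and without tumor. Both tumor arrays lay above both arrays without tumor, by 2.56-fold in Tlr3-deficient mice (log2 1.36) and 2.41-fold in WT (1.27). The neutrophil markers moved with it: of 11 measured, 10 were called higher with tumor in Tlr3-deficient mice and 11 in WT, with medians of 3.22 and 3.01. Their part in the Cyp4f18 difference was not tested, and more cells of a type cannot be told apart from more RNA per cell. With normexp the 2 differences were 0.79 and 0.94.

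The other called fatty acid P450s were dim. Cyp4f39, the mouse relative of the human skin lipid gene CYP4F22, read -3.91 and -2.77 on the Tlr3-deficient arrays with and without tumor, against -4.25 and -4.71 on the WT arrays, the last not well above background. It was 2.20-fold lower with tumor in Tlr3-deficient mice (-1.14) and at least 3.83-fold higher in Tlr3-deficient mice than in WT without tumor. Cyp4f14 cleared background only with tumor in WT, at -4.20, where it was at least 2.07-fold higher than on the WT no-tumor array and at least 2.32-fold above the Tlr3-deficient tumor array. Cyp2c37, an arachidonic acid hydroxylase, was 2.03-fold higher in Tlr3-deficient mice than in WT without tumor (1.02), and its second probe went the opposite way, so that the mean of both was -0.79. With normexp the Tlr3-deficient tumor difference of Cyp4f39 was -0.67, the differences of Cyp4f14 were 0.25 and -0.37, and that of Cyp2c37 was 0.71, all under 2-fold. Cyp4a12a, just short of a call, was 1.98-fold lower in Tlr3-deficient mice than in WT with tumor.

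None of the 8 measured steroid, sterol and vitamin D P450s was called in any comparison. In the 7 that cleared background on every array, the differences ran from -0.76 to 0.93. The remaining one, Cyp27a1, a sterol hydroxylase of bile acid synthesis, cleared background only with tumor in Tlr3-deficient mice, at -4.99, where it was at least 1.32-fold above the WT tumor array, so a 2-fold difference can be neither shown nor set aside. Cyp17a1, a key enzyme of androgen synthesis, read 1.89 and 2.29 on the Tlr3-deficient arrays with and without tumor, against 2.42 and 2.46 on the WT arrays with and without tumor. Cyp39a1, an oxysterol hydroxylase of bile acid synthesis, read 0.40 and -0.24, against -0.50 and 0.08. Cyp27b1, which makes active vitamin D, stayed between -2.48 and -2.11, Cyp46a1, which turns over brain cholesterol, between -2.64 and -2.08, and Cyp2r1, a vitamin D hydroxylase, between -3.26 and -2.62. Cyp21a1, of adrenal steroid synthesis, differed most, with 0.87 for tumor in WT and 0.93 for genotype without tumor. It went the other way with tumor in Tlr3-deficient mice (-0.76) and between genotypes with tumor (-0.70), and was dim, between -4.37 and -3.44. Cyp7a1, Cyp8b1, Cyp11a1, Cyp11b2, Cyp19a1 and Cyp24a1 were not well above background on any array.

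The partners that P450 enzymes need were level. None of 12 measured genes for electron supply and haem reached 2-fold in any comparison. Por, the reductase that feeds microsomal P450s, read 5.72 and 5.78 on the Tlr3-deficient arrays with and without tumor, against 5.77 and 6.10 on the WT arrays with and without tumor. Alas1, the first enzyme of haem synthesis, stayed between 5.02 and 5.25, and Cyb5a, the cytochrome that assists some P450s, between 5.01 and 5.24.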

How the data were processed

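RNA of sorted type II cells was amplified, labelled with Cy3 and hybridised to 1-colour Agilent mouse arrays (design 014868), per the labels' protocols. The file headers name version 10.7.3.1 of Agilent Feature Extraction as the reader of the spots. Per the file headers, its processed signal is an intensity on a linear scale, corrected for background and for trends across each array, with no scaling between arrays. The authors also deposited a table of log2 values. Its columns correlated with the log2 scanner signal at r of 0.9995 to 0.9998 and had medians of 6.31, so its scale and direction follow the scanner files. The sources used here do not give how the authors made it, and it served as an alternative.

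Spots flagged as outliers were dropped. The log2 processed intensity minus the array's 75th percentile over non-control probes was compared between arrays with Python 3.11.15, and the code was tested on simulated data. A difference with 1 array below background is a bound, with the dim side set to its own value or, if higher, to the lowest signal well above background on that array. Alternatives were normexp with an offset of 50 (limma 3.58.1) and quantile normalization, quantile or median scaling, the mean of a gene's probes, other filters, and the deposited table. Members of the 5 roles and the gene lists were chosen with earlier results of these data known. Genes named with values are the Ah receptor and CYP26 members, every member past 2-fold, the brightest of the other roles and list members past 2-fold; the rest named were chosen after their values were seen. Probe positions come from the array's own mm9 annotation. Promoter sequences are from RefSeq on GRCm38.p6.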

Additional observations from a re-analysis of the deposited data

Results flagged for a closer look

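For 3 genes the difference with tumor was at least 2-fold in opposite directions in the 2 genotypes, with 1 array on each side. Subtracting the WT tumor difference from the Tlr3-deficient one gave 2.71 for Cyp2a4, 2.66 for Cyp2a5 and 3.89 for Cyp2a22, on the log2 scale, the last with a bound in Tlr3-deficient mice. The difference between the genotypes was not tested, since each group is 1 array. All 3 values rest on the array labelled Tlr3-deficient without tumor, which carries Y-linked transcripts, and on the pair of arrays of 1 slide. The part of either was not tested.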

How the results depend on the processing

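The 30 differences past 2-fold among the named members were recomputed under each alternative. Normexp left 16 past 2-fold, quantile normalization 26, median centring 28, kept outlier spots 30 and no filter 30, and 27 were left both with the mean of all probes and with the values the authors deposited. With the filter set to all 4 arrays, 21 of 21 remained. The bound is the main setting, and measured values in place of bounds, chosen after seeing the data, left 30. One value turned: Cyp2c37 between genotypes without tumor was -0.79 with the mean of all probes. With tumor in Tlr3-deficient mice, 5 P450 genes were called higher (2 with normexp) and 2 lower (5 with no filter, 1 with normexp, 1 over genes above background on all arrays), and the median of 0.14 was -0.22 with no filter. With tumor in WT, 3 were higher (5 with no filter, 5 with the deposited table) and 8 lower (13 with no filter, 4 with normexp). Between genotypes without tumor, 4 were higher (8 with no filter, 2 with the mean of probes) and 2 lower (6 with no filter, 1 with normexp, 1 over genes above background on all arrays). With tumor, 5 were higher and 1 lower (2 with no filter, 0 with normexp, 0 over genes above background on all arrays). Among genes with a probe in array columns 52 to 85, chosen after seeing the data, fewer P450 genes were tested. Tlr3-deficient mice had 1 of 17 higher and 0 lower with tumor, and WT had 0 of 18 higher and 2 lower. Between genotypes, 0 of 16 were higher and 1 lower without tumor, and 1 of 18 higher and 0 lower with tumor. The cause of these shifts was not tested.

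Of all genes called, 78.3% were higher with tumor in WT, against 66% with quantile normalization and 63.3% with median centring, and 71.5% were higher in Tlr3-deficient mice without tumor, against 61.6% and 61.8%. Over genes with a probe in array columns 52 to 85, 70.2% and 42.4% were higher. The second value reversed the skew, with 151 genes higher and 205 lower. Both comparisons use the WT array without tumor and are those with the larger spot SD. Median centring moved the median of all genes to -0.15 and -0.14 in these 2 comparisons. No paired analysis was possible because each group holds 1 array. A slide block could not be fitted for the same reason. The scanner's error model gave P450 spots an error of 0.144 to 0.321 log2 units, which is the limit for dim genes, and 1 array a group limits every difference.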

Other observations

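A few other genes of arachidonic acid metabolism, led by Alox5ap and Alox5, were at least 2-fold higher with tumor. Alox5ap, which presents arachidonic acid to 5-lipoxygenase, read 0.09 and -1.11 on the Tlr3-deficient arrays with and without tumor, against 0.30 and -1.83 on the WT arrays with and without tumor. It was 2.28-fold higher with tumor in Tlr3-deficient mice and 4.38-fold higher in WT. Alox5, the lipoxygenase itself, read -2.87 and -4.53, against -3.32 and -4.68, and was 3.18-fold and 2.56-fold higher. Both tumor arrays lay above both others for each gene. Of 15 measured genes of this pathway, 14 were tested in each comparison. With tumor in Tlr3-deficient mice 3 were called higher and 0 lower, beside 4.5% and 3.89% of all genes. With tumor in WT 4 were higher and 1 lower, beside 5.65% and 1.57%. The neutrophil markers were higher on the same arrays. The other higher genes were Ptges, a prostaglandin E synthase, in Tlr3-deficient mice (1.36), and Ptgs1, a cyclooxygenase (1.08), and Tbxas1, thromboxane synthase (1.12), in WT. The lower gene was Alox15, another lipoxygenase, at least 2.15-fold lower with tumor in WT. Alox15 cleared background only on the WT array without tumor, at -4.28, so it could not have been called higher there. The part of the neutrophil markers in these values was not tested.

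Between genotypes, Alox12 and Ptgs1 were higher in Tlr3-deficient mice than in WT without tumor (1.70 and 1.16), and Ptges with tumor (1.09). These were 2 and 1 of the 14 tested, beside 5.89% and 2.9% of all genes. Ephx1 and Ephx2, the epoxide hydrolases that act on P450 products, were called in no comparison.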
